A study of Homo sapiens with 8 samples.

Results

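The NR4A genes encode the 3 orphan nuclear receptors NR4A1 (NUR77), NR4A2 (NURR1) and NR4A3 (NOR1). Their members were taken as the probe sets whose annotated gene symbol is NR4A1, NR4A2 or NR4A3, which gave 1 probe set for each gene (7955589, 8055952 and 8156848), none shared with another gene, and so 3 of the 18417 genes tested. The cells were of HCT116, an established human line from a colorectal cancer, and carried either a short hairpin RNA directed against CDK8 (shCDK8) or a control hairpin (shControl). All cells were deprived of serum for 40 h in McCoy's medium, and RNA was taken then (starved) or after 30 min in the same medium with 10% fetal bovine serum (serum-treated). The 4 groups were serum-treated shCDK8, starved shCDK8, serum-treated shControl and starved shControl cells, with 2 arrays each and 8 arrays in all. CDK8 is a kinase of Mediator, the complex that links transcription factors to RNA polymerase II, and the comparison of the lines asks how its depletion bears on the serum response. The labels name 1 hairpin per line and do not say whether the arrays of a group came from separate cultures, so p-values reflect only how these samples spread, which may be technical, and knockdown cannot be told apart from any other difference between the lines.

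NR4A receptors have no known physiological hormone. Their activity is set largely by how much of the protein a cell makes, and their genes are immediate-early genes, which are transcribed within minutes of a stimulus without new protein synthesis. Serum and growth factors reach these genes through ERK and its downstream RSK and MSK kinases. The DNA-binding factors CREB, MEF2 and SRF act on the genes, and cyclic AMP reaches them through CREB. The receptors bind a short element called the NBRE as single molecules, and NR4A1 and NR4A2 also pair with the retinoid X receptors (RXR).

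The hairpin's target was checked first. The probe set annotated to CDK8, and to ADRA1B as well, read 4.45-fold lower in serum-treated shCDK8 cells and 4.53-fold lower in starved shCDK8 cells than in shControl cells in the same state (adjusted p = 1.71e-05 and 1.44e-05 over all probe sets), and serum moved it by 0.01 on the log2 scale in shCDK8 and by -0.01 in shControl cells. The cell type rests on the labels, since levels of different probe sets cannot be set against each other. The 9 epithelial markers listed had group means on the log2 scale between 5.50 (VIL1) and 12.71 (KRT8), and 11 measured markers of blood, endothelial and fibroblast cells had group means between 3.54 (DCN) and 8.45 (COL1A1). Of these 11, 0 passed in any of the 5 comparisons made here by limma. At an unadjusted p below 0.05 there were 1 after serum in shCDK8 cells (1766 of all 18417 genes) and 3 in shControl cells (1662). Between the serum-treated lines there was 1 (4806 of all genes), and in the other comparisons there were 0. Of the 9 epithelial markers, 3 were higher and 2 lower in serum-treated shCDK8 than shControl cells (7.7% and 6.54% of all genes). In starved cells 2 were higher and 2 lower (7.13% and 6.28% of all genes). After serum 1 rose in shControl cells (0.424% of all genes) and 0 in shCDK8 cells (0.25%). The array medians lay between 7.07 and 7.11, and Pearson's r over all genes was 0.997 to 0.998 for the duplicates of a group.

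The bases before the transcript starts are shown because all 3 genes rose together after serum and CREB is one of the factors known to drive them. The sequences are the 250 bases before RefSeq transcript starts on GRCh38.p14 (5′ to 3′, plus strand). They cover NR4A3 and 2 alternative starts of NR4A1. Any further start of these genes was not examined, so the windows may leave out a promoter in use. NR4A2 was not among the sequences used here. Capitals mark any match to 1 of 7 motifs searched on both strands: the cyclic AMP response element (CRE) TGACGTCA, its 5-base core TGACG, the SP1 box GGGCGG, the NBRE AAAGGTCA, the TATA box TATAAA, the CArG box of SRF and the MEF2 site. A whole CRE holds the core on either strand and counts as 2 cores.
NR4A3, chr9:99821635-99821884: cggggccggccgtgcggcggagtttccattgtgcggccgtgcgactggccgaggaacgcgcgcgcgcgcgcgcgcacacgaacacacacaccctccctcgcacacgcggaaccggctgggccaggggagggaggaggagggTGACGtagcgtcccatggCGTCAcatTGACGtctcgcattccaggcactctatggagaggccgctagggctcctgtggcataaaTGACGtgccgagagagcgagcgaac
NR4A1, first start, chr12:52022582-52022831: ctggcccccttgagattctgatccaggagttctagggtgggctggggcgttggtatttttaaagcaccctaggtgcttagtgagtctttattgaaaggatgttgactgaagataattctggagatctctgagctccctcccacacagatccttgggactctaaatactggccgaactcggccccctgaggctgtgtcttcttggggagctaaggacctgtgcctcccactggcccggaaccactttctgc
NR4A1, second start, chr12:52037465-52037714: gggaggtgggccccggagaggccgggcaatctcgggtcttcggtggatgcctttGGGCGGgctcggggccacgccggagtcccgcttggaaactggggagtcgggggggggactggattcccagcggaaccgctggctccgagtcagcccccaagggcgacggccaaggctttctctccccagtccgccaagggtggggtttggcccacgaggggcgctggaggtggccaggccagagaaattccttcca

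The NR4A3 window held 4 CRE cores, 3 reading TGACG and 1 reading CGTCA, its reverse complement. Counted back from the start, they began at positions -109, -91, -83 and -25. At least 1 core was found in 21.2% of 35114 RefSeq windows of the same length, at least 3 in 1.01% and at least 4 in 0.236%. These windows do not cover every gene. Of 28 windows from 24 other immediate-early genes, 16 held at least 1 core and 2 held at least 3. The whole CRE, present in 1.65% of windows, was not in the 3 windows shown. The first NR4A1 window held no match to any of the 7 motifs, and the second held 1 SP1 box, a motif of 42.6% of windows. The other motifs, absent from all 3 windows, were found in 1.05% (NBRE), 10.7% (TATA box), 1.16% (CArG box) and 2.80% (MEF2 site) of windows. A match describes the letters only, and the arrays do not show which NR4A1 start was in use.

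Serum raised all 3 genes in both lines, and each rise was many times the spread between arrays. NR4A1 is the member that can also act outside the nucleus, by binding BCL2 at mitochondria. Its level was 9.83 and 10.22 in serum-treated shCDK8 cells, against 7.42 and 7.38 in starved shCDK8 cells. In shControl cells it was 10.48 and 10.57 after serum, against 7.70 and 7.65 in starved cells. The lowest serum-treated array thus stood above the highest starved array by 2.41 in shCDK8 and 2.78 in shControl cells. Serum-treated arrays stood above starved ones without overlap for 19.1% of all genes in shCDK8 and 16.2% in shControl cells. The rise was 6.17-fold in shCDK8 cells (log2 2.62 ± 0.11 SE, adjusted p = 2.73e-06, limma with Benjamini-Hochberg adjustment, as for every adjusted p here) and 7.21-fold in shControl cells (2.85 ± 0.11, adjusted p = 1.17e-06).

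NR4A2 is best known as a factor that dopamine neurons need to develop and survive. It read 10.74 and 11.22 in serum-treated shCDK8 cells, against 8.10 and 8.30 in starved shCDK8 cells. In shControl cells it read 11.19 and 11.26 after serum, against 8.51 and 8.41 in starved cells. Starved and serum-treated arrays did not overlap in either line. The rises were close to each other, 6.84-fold in shCDK8 cells (log2 2.77 ± 0.14 SE, adjusted p = 8.21e-06) and 6.80-fold in shControl cells (2.77 ± 0.14, adjusted p = 6.75e-06).

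NR4A3, known for its fusion with EWSR1 in extraskeletal myxoid chondrosarcoma, had the largest rise of the 3 in shControl cells. Its level was 7.85 and 8.44 in serum-treated shCDK8 cells, against 5.41 and 5.52 in starved shCDK8 cells. In shControl cells it was 8.89 and 8.90 after serum, against 5.52 and 5.61 in starved cells. The serum-treated shControl arrays lay 0.01 apart, while the serum-treated shCDK8 arrays lay 0.59 apart. The rise was 6.38-fold in shCDK8 cells (log2 2.67 ± 0.15 SE, adjusted p = 2.71e-05) and 10.0-fold in shControl cells (3.32 ± 0.15, adjusted p = 4.03e-06).

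**Figure D1:**
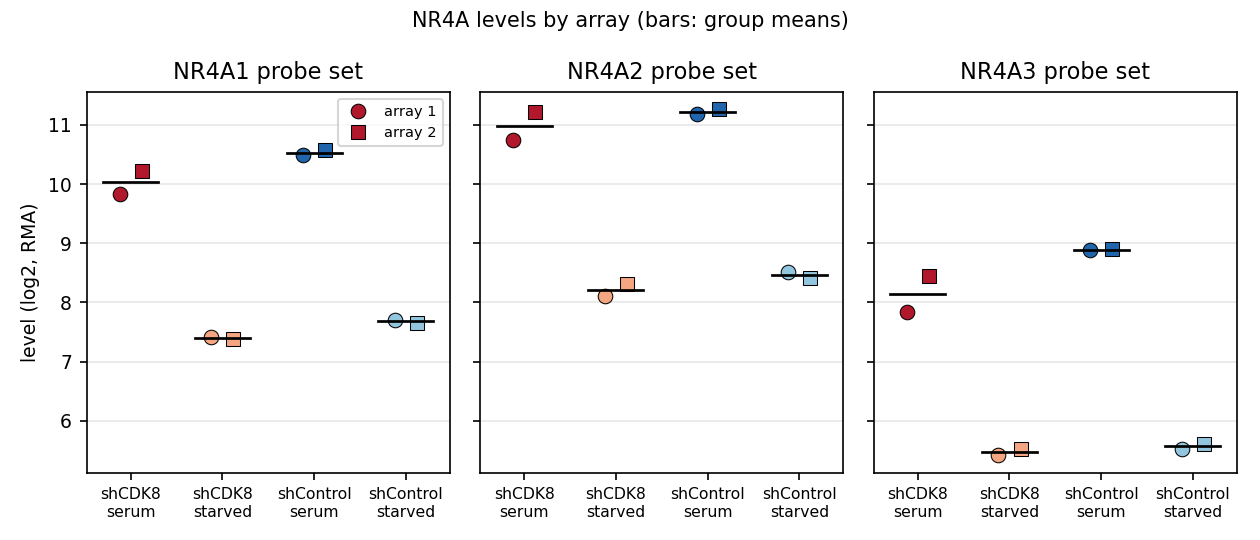
Log2 level of each NR4A probe set (y axis) in the 8 arrays, by group (x axis). Circles are array 1, squares array 2 and bars the group means. Every serum-treated array stands above every starved array, and array 2 stands above array 1 in serum-treated shCDK8 cells for all 3 genes. Levels of different probe sets are not comparable with each other.

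In the comparison of serum-treated with starved cells 3 of 3 NR4A genes rose in each line, where 0.25% of all genes rose in shCDK8 cells and 0.424% in shControl cells. By size of the log2 change among the 18417 genes, NR4A2, NR4A3 and NR4A1 ranked 4, 6 and 7 in shCDK8 cells, and NR4A3, NR4A1 and NR4A2 ranked 2, 8 and 9 in shControl cells. The size of a fold change also depends on how each probe set responds to its RNA, so the order among the 3 genes is that of these probe sets.

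The other nuclear receptors on the array were examined beside them. Of 36 measured members of the superfamily outside the NR4A group, 0 passed the test after serum in either line by limma. Their changes ran from -0.16 to 0.26 in shCDK8 cells and from -0.16 to 0.22 in shControl cells, with medians of 0.01 and 0.03, against -0.01 and -0.01 over all genes. The smallest p in both lines belonged to NR6A1, a germ-cell receptor (0.26 ± 0.07 SE in shCDK8 cells, adjusted p = 0.285, and 0.22 ± 0.07 in shControl cells, adjusted p = 0.350). Next came NR2F1 in shCDK8 cells (0.17, adjusted p = 0.504) and NR2E3, a receptor of the retina, in shControl cells (0.17, adjusted p = 0.475). At an unadjusted p below 0.05, 3 of the 36 passed in shCDK8 cells (1766 of all 18417 genes) and 2 in shControl cells (1662). By contrast, 18 of 30 other immediate-early genes rose in shCDK8 cells and 22 in shControl cells, with medians of 0.87 and 0.90. The 6 largest rises among them, in shCDK8 and shControl cells, were those of FOS (3.74 and 3.30), CCN1 (3.51 and 3.72), ATF3 (2.68 and 3.18), FOSB, DUSP1 and JUN.

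Over the 8 arrays the 3 NR4A genes followed nearly the same course. Pearson's r was 0.997 between NR4A1 and NR4A2, 0.997 between NR4A1 and NR4A3 and 0.992 between NR4A2 and NR4A3. These correlations describe 4 groups of arrays that share the serum step, and any gene with a large serum response would correlate highly. Likeness was ranked by the root mean square difference of the centred values over the 8 arrays. This measure also rests on the serum step and favours genes whose rise is of similar size. The gene closest to NR4A1 was DUSP1, a phosphatase that switches off MAP kinases (0.10 on the log2 scale), followed by NR4A2 (0.11), JUN (0.18), NR4A3 (0.18) and FOSB (0.18). For NR4A2 the 5 closest were NR4A1 (0.11), DUSP1 (0.14), JUN (0.20), FOSB (0.22) and NR4A3 (0.23). For NR4A3 they were FOSB (0.17), NR4A1 (0.18), DUSP1 (0.20), NR4A2 (0.23) and JUN (0.23). JUN and FOSB are subunits of the transcription factor AP-1. DUSP1 rose by 2.50 in shCDK8 and by 2.88 in shControl cells on the log2 scale, FOSB by 2.90 and 3.06, and JUN by 2.33 and 3.04.

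**Figure D2:**
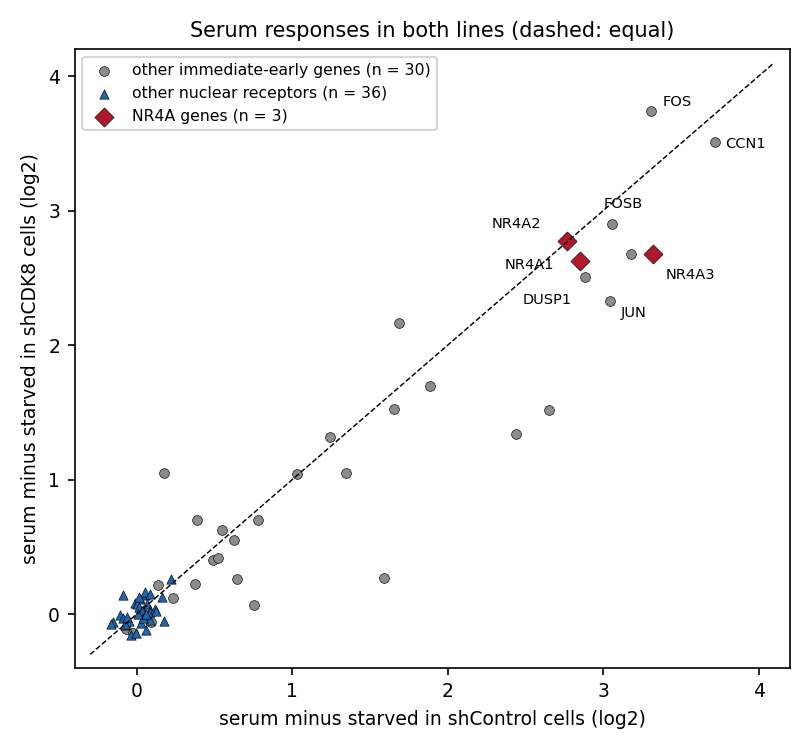
Serum response (serum minus starved, log2) in shCDK8 cells (y axis) against that in shControl cells (x axis) for the NR4A genes (diamonds, n = 3), 30 other immediate-early genes (circles) and 36 other nuclear receptors (triangles). The dashed line marks equal responses. The nuclear receptors outside the group lie between -0.16 and 0.26 on both axes, and the NR4A genes lie among JUN, FOSB and DUSP1.

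Between the lines, NR4A1 and NR4A3 were lower in shCDK8 cells after serum, and NR4A2 did not pass. In serum-treated cells both NR4A1 arrays of shCDK8 cells, at 9.83 and 10.22, lay below both of shControl cells, at 10.48 and 10.57, a level 1.42-fold lower (log2 -0.50 ± 0.11 SE, 95% interval -0.75 to -0.26, adjusted p = 0.0140). NR4A3 was 1.68-fold lower (-0.75 ± 0.15, -1.09 to -0.41, adjusted p = 0.00952), again with no overlap between the lines, as for 28% of all genes in this direction. NR4A2 differed by -0.25 ± 0.14 (-0.55 to 0.06, adjusted p = 0.303), and its second shCDK8 array, at 11.22, lay between the shControl arrays at 11.19 and 11.26. Thus 2 of 3 NR4A genes were lower, where 6.54% of all genes were.

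The calls on NR4A1 and NR4A3 each ended in 4 of 17 alternatives, and neither difference changed sign. Without serum array 1 of shCDK8 the difference of NR4A1 was -0.31 (adjusted p = 0.0555) and that of NR4A3 -0.45 (0.0148). Without serum array 2 of shCDK8 the differences were -0.70 and -1.05 (0.00151 and 0.00022), and NR4A2, at -0.48, passed as well (0.0234). Without serum array 2 of shControl neither NR4A1 (-0.46, 0.0931) nor NR4A3 (-0.74, 0.0541) passed, and without its serum array 1 NR4A3 did not (-0.75, 0.0520). When all 33297 probe sets were fitted the adjusted p was 0.0673 for NR4A1 and 0.0576 for NR4A3, and with a minimum change of 1.5-fold neither passed (adjusted p = 1 for each).

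In starved cells 0 of 3 NR4A genes passed in limma, where 6.28% of all genes were lower in shCDK8 cells. NR4A1 read 7.42 and 7.38 in shCDK8 cells, against 7.70 and 7.65 in shControl cells, without overlap, as for 27.7% of all genes in this direction. The difference was -0.28 ± 0.11 SE (95% interval -0.53 to -0.03, unadjusted p = 0.0320 and adjusted p = 0.148). It passed in the fit of the 4 starved arrays alone (adjusted p = 0.0483). It also passed when either serum array of shCDK8 was left out. A group left with 1 array adds no spread, so those fits give the same starved comparison and count as 1 result. NR4A2 differed by -0.25 ± 0.14 (-0.56 to 0.05, adjusted p = 0.287) and NR4A3 by -0.10 ± 0.15 (-0.44 to 0.24, adjusted p = 0.753). Starved NR4A3 averaged 5.57 in shControl and 5.47 in shCDK8 cells, at percentiles 24.97 and 23.89 of the readings of all genes. Whether so low a starved reading affected the line difference or the serum rises of NR4A3 was not tested. The direction was the same for all 3 genes, and only NR4A1 had an unadjusted p below 0.05.

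Whether the serum response itself differed between the lines was tested as the difference of the responses, and 0 of 3 NR4A genes and 0% of all genes passed in limma. NR4A3 rose by 2.67 in shCDK8 and 3.32 in shControl cells, a difference of -0.65 ± 0.22 SE (95% interval -1.13 to -0.16, unadjusted p = 0.0139, adjusted p = 1). That difference ranked 14 from the lowest of 18417 genes. Over the 4 pairs of a serum-treated and a starved array, its response ran from 2.32 to 3.02 in shCDK8 cells and from 3.27 to 3.37 in shControl cells, without overlap, as for 6.67% of all genes in this direction. Without serum array 1 of shCDK8 the difference was -0.35, and without serum array 2 it was -0.94 (adjusted p = 0.143). For NR4A1 the responses differed by -0.23 ± 0.16 (-0.58 to 0.12) and ran from 2.41 to 2.84 in shCDK8 and from 2.78 to 2.92 in shControl cells. For NR4A2 they differed by 0.01 ± 0.19, with an interval of -0.42 to 0.44 that leaves room for a change in either direction. Over all genes, 703 had an unadjusted p below 0.05 for this difference.

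**Figure D3:**
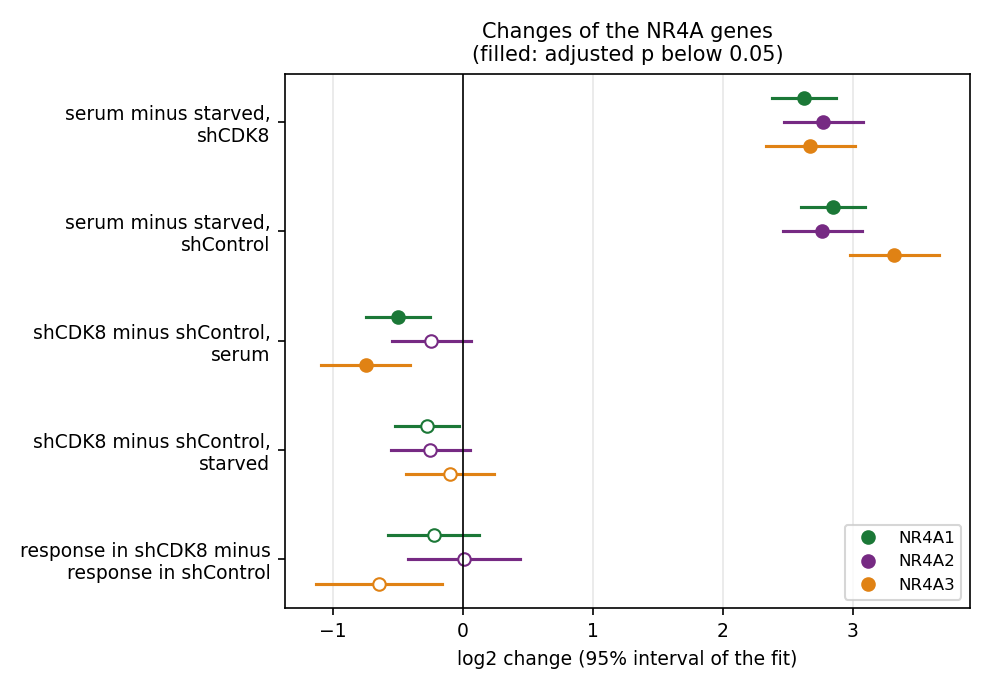
Log2 changes of NR4A1, NR4A2 and NR4A3 (x axis) in the 5 comparisons (y axis), with 95% intervals of the fit. Filled points have an adjusted p below 0.05. All 6 serum changes lie between 2.62 and 3.32, and the line differences lie between -0.75 and -0.10.

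The 2 serum-treated shCDK8 arrays were less alike for these genes than the arrays of the other groups. Array 2 exceeded array 1 by 0.39 for NR4A1, 0.47 for NR4A2 and 0.59 for NR4A3. Of 18417 genes, 28 differed between these arrays by as much as NR4A3 did, NR4A3 included. In starved shCDK8 cells the same differences were -0.03, 0.20 and 0.11, in serum-treated shControl cells 0.09, 0.08 and 0.01, and in starved shControl cells -0.05, -0.10 and 0.09. The median over all genes was -0.00185 between the serum-treated shCDK8 arrays, and the middle 95% of genes lay between -0.29 and 0.28. Other immediate-early genes moved with the NR4A genes: 26 of 30 listed ones were higher in array 2, with a median difference of 0.22. The medians in the other groups were -0.00095 in starved shCDK8, -0.00484 in serum-treated shControl and -0.03 in starved shControl cells. Of the 37 genes outside the NR4A group that rose after serum in both lines, 36 were higher in array 2 of serum-treated shCDK8 cells. The 37 include listed immediate-early genes, so the 2 sets overlap. The part of this array difference in the line comparisons after serum is shown by the values without either array, given above, and its cause was not tested.

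**Figure D4:**
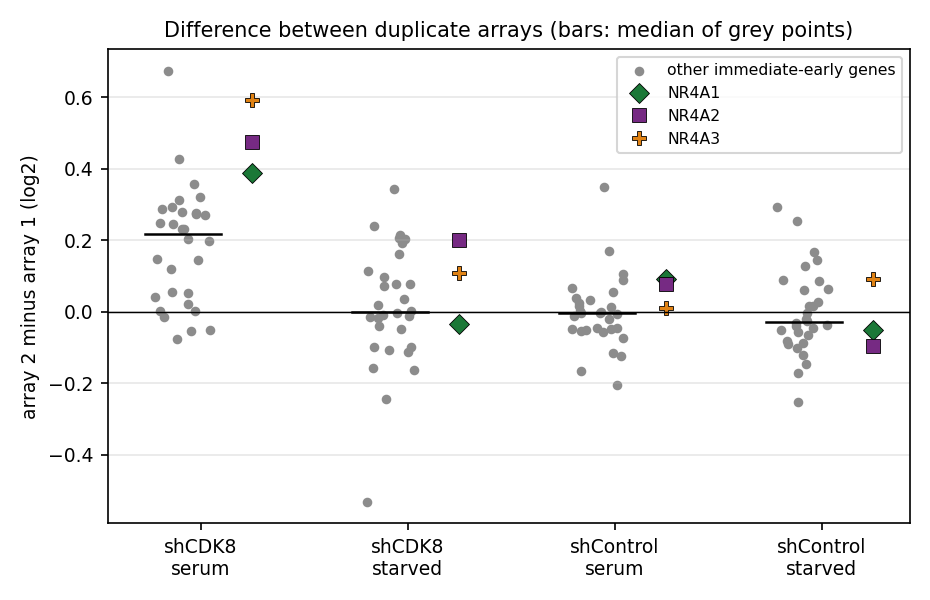
Array 2 minus array 1 (log2, y axis) in each group (x axis) for 30 other immediate-early genes (grey points, with the median as a bar) and for NR4A1, NR4A2 and NR4A3 (coloured symbols). In serum-treated shCDK8 cells the NR4A genes differ by 0.39 to 0.59 and the grey median is 0.22, while in the 3 other groups the NR4A genes lie between -0.10 and 0.20.

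The genes that act upstream of the NR4A genes were read from a list of kinases, CREB factors and coactivators, MEF2 factors, SRF and class IIa histone deacetylases, of which 22 of 25 were measured. After serum 1 of the 22 rose in each line, where 0.25% of all genes rose in shCDK8 and 0.424% in shControl cells. This was SRF, itself an immediate-early gene, which rose by 0.55 ± 0.08 SE in shCDK8 cells (adjusted p = 0.0314) and by 0.62 ± 0.08 in shControl cells (adjusted p = 0.00960). Chosen after their values were seen, CREB1, which binds the CRE, changed by 0.10 in shCDK8 and 0.06 in shControl cells and did not pass (adjusted p = 0.655 and 0.852). CREM, a CREB relative with inducible repressor forms, changed by 0.25 and 0.24, which did not pass either (adjusted p = 0.309 and 0.302).

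Between the lines, 2 of the 22 upstream genes were higher and 4 lower in serum-treated shCDK8 than in shControl cells, where 7.7% of all genes were higher and 6.54% lower. MEF2C, a MEF2 factor, was 3.13-fold lower (log2 -1.65 ± 0.11 SE, adjusted p = 9.73e-06). RPS6KA5 (MSK1), a kinase that phosphorylates CREB and histone H3, was 2.15-fold lower (-1.10 ± 0.08, adjusted p = 1.88e-05), and RPS6KA1 (RSK1) was 1.44-fold lower (-0.53 ± 0.07). RPS6KA2 (RSK3) was 1.51-fold higher (0.60 ± 0.07), HDAC9, a deacetylase that represses MEF2 targets, was 1.27-fold higher (0.35 ± 0.07), and its relative HDAC5 was 1.21-fold lower (-0.28 ± 0.07, adjusted p = 0.0334). In starved cells, where 7.13% of all genes were higher and 6.28% lower in shCDK8 cells, MEF2C (-1.65), RPS6KA5 (-0.80) and RPS6KA1 (-0.69) were lower and RPS6KA2 (0.45) and HDAC9 (0.40) higher. The list medians were -0.09 after serum and -0.11 before it, against -0.01 over all genes at each time. For the difference of responses 0 of the 22 genes passed in limma. At an unadjusted p below 0.05 there was 1, against 703 of all 18417 genes. Differences of the 22 ran from -0.30 to 0.16. The smallest p-values were those of RPS6KA5 (-0.30) and RPS6KA1 (0.16).

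Binding partners and reported targets of the receptors were also listed. Of 7 measured binding partners 0 passed after serum in either line in limma, where 0.255% of all genes passed in shCDK8 and 0.462% in shControl cells. At an unadjusted p below 0.05 there were 0 partners, against 1766 of all 18417 genes in shCDK8 and 1662 in shControl cells. The smallest p-values were those of RCOR1 (0.11) and BCL2 (-0.12) in shCDK8 cells and of STK11 (-0.10), a kinase that NR4A1 binds, and RXRA (-0.07) in shControl cells, given as log2 changes. Between the starved lines 1 of the 7 partners was lower in shCDK8 cells, where 6.28% of all genes were. This was RCOR1, a corepressor that NR4A2 recruits (-0.28 ± 0.07 SE, adjusted p = 0.0230). After serum RCOR1 differed by -0.15 (adjusted p = 0.200), and BCL2 had the next smallest p (0.12, adjusted p = 0.470). Of 19 measured genes reported as NR4A targets in brain, muscle, liver or tumours, 0 passed after serum in either line in limma. At an unadjusted p below 0.05 there were 3 in each line, against 1766 of all 18417 genes in shCDK8 and 1662 in shControl cells. Changes of the 19 lay between -0.30 and 0.12 in shCDK8 cells and between -0.21 and 0.18 in shControl cells. Their mean readings ran from percentile 3.4 (VIP) to 96.4 (IDH1) of the readings of all genes. RNA was taken 30 min after serum, and whether that leaves time for new receptor protein to act on these genes was not tested. The smallest p-values belonged to FBP1, a gluconeogenic enzyme, in shCDK8 cells (-0.30 ± 0.07 SE, adjusted p = 0.199) and to the monoamine transporter SLC18A2 in shControl cells (-0.21 ± 0.07, adjusted p = 0.447), followed in both by POMC, a hormone precursor (-0.21 in shCDK8 and -0.18 in shControl cells, adjusted p = 0.442 and 0.50). Between the lines 1 of the 19 targets passed, near the share of all genes that were lower (6.54% after serum and 6.28% in starved cells). This was BIRC5 (survivin), an inhibitor of apoptosis that peaks in mitosis, which differed by -0.35 ± 0.07 after serum (adjusted p = 0.00768) and by -0.44 ± 0.07 in starved cells (adjusted p = 0.00208).

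Among the other nuclear receptors, 6 were higher and 2 lower in shCDK8 cells after serum, and 5 were higher and 2 lower in starved cells, of 36 measured. Over all genes the shares were 7.7% higher and 6.54% lower after serum and 7.13% higher and 6.28% lower in starved cells, so the counts of lower receptors were near the background. PPARG, a receptor for fatty acid derivatives, was 3.39-fold higher after serum (log2 1.76 ± 0.09 SE, adjusted p = 2.08e-06) and 3.55-fold higher in starved cells (1.83 ± 0.09, adjusted p = 1.73e-06). The thyroid hormone receptor THRB was higher by 0.63 and 0.73, and NR2F1 (COUP-TFI) by 0.46 and 0.35. NR2C1 was higher after serum (0.29 ± 0.08). NR1D1, a clock repressor, was higher by 0.26 ± 0.07 after serum (adjusted p = 0.0386, a call that ended in 11 of 16 alternatives) and by 0.31 ± 0.07 in starved cells (adjusted p = 0.0188). NR5A2 (LRH-1), a receptor of the gut and liver, was lower (-0.84 after serum and -0.90 in starved cells), as was NR3C1, the glucocorticoid receptor (-0.60 and -0.56). The median difference over the 36 was 0.03 after serum and 0.02 in starved cells, against -0.01 over all genes. For the 30 other immediate-early genes measured, 6 were higher and 14 lower in shCDK8 cells after serum (7.7% and 6.54% of all genes), with a median of -0.29, and 6 were higher and 8 lower in starved cells (7.13% and 6.28% of all genes), with a median of 0.02. The largest differences after serum were those of DUSP2 (-1.58), KLF4 (1.38), PTGS2 (-1.23), ZFP36 (-1.06), EGR3 (-1.06) and JUNB (-1.04). In starved cells they were those of FOS (-1.25), EGR1 (-1.25), KLF4 (1.07), KLF6 (0.95), JUNB (-0.91) and ZFP36 (-0.88). For the difference of responses, where 0 genes of any list passed in limma, the smallest p-values of each list belonged to PTGS2 (-1.32) and CCN2 (0.87) among immediate-early genes, NR2E3 (-0.22) and ESRRG (0.23) among nuclear receptors, SLC18A2 (0.33) and FBP1 (-0.18) among targets and RCOR1 (0.13) and BCL2 (-0.13) among partners. At an unadjusted p below 0.05, 12 of the 30 immediate-early genes and 1 of the 36 receptors passed. Among the 19 targets 1 did, among the 7 partners 0 and among all 18417 genes 703. The NR4A median was -0.50 after serum and -0.25 in starved cells.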

How the data were processed

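Total RNA of 8 HCT116 samples was measured on Affymetrix gene arrays, 1 array each, in groups that follow the labels. The authors deposited log2 levels per probe set, computed by RMA according to the submitters' processing notes. RMA corrects background, equalises the arrays' intensity distributions and summarises the probes of a set. No RMA version or genome build, nor which arrays were normalized with each other, is stated in these sources. The number of arrays limits the precision.

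Of 33297 probe sets, the array annotation pairs 19460 with exactly 1 gene, 1754 with several and lists no gene for 12083. Of the 19460, 19429 matched a RefSeq gene table of GRCh38.p14 by Entrez ID and 0 symbols changed. For 769 genes with several probe sets the one with the highest mean was used, which left 18417 genes. Some listed genes were not measured by a probe set of their own and were not analysed here. A linear model of 4 group means was fitted to all genes with limma 3.58.1 (R 4.3.3) without a filter, with 4 residual and 5.49 prior degrees of freedom. The two-sided p-values of 5 contrasts were adjusted by Benjamini-Hochberg over all genes, with a threshold of 0.05 for a gene to have risen, fallen or passed. SE is the model's standard error and intervals are 95% intervals of the fit. Lists were described by counts and medians.

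The NR4A genes and the lists, which were written from general knowledge, were chosen with earlier results of these data known. Named were the NR4A genes, the 5 genes nearest to each over the 8 arrays, and of each list the genes that passed (at most 6, by size) or the 2 with the smallest p. Simulated data with known changes served to test the fit. The alternatives were 9 other settings and leaving out each of the 8 arrays. Promoter windows came from RefSeq. Figures were drawn with matplotlib 3.10.9.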

Additional observations from a re-analysis of the deposited data

How the results depend on the processing

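All 6 serum changes of the NR4A genes passed in each of the 17 alternatives, with adjusted p up to 0.00328 and log2 changes between 2.38 and 3.37. In starved cells NR4A1 passed with the compared arrays alone (-0.28, which made 1 of 3 NR4A genes) and, with 1 array left out, ranged from -0.30 to -0.25 with 0 to 1 NR4A genes called. After serum 0 NR4A genes passed with all probe sets or a minimum change of 1.5-fold, where NR4A1 was at -0.50 and NR4A3 at -0.75. Leaving out 1 array gave 0 to 3 NR4A genes there, with NR4A1 between -0.70 and -0.31, NR4A2 between -0.48 and -0.0087 and NR4A3 between -1.05 and -0.45. The difference of responses of NR4A2, 0.01, lay between -0.23 and 0.25 and was below 0 in 4 of 8 such fits, and those of NR4A1 (-0.42 to -0.03) and NR4A3 (-0.94 to -0.35) stayed below 0.

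Over all genes, 85 were called after serum in shControl cells, 128 when the variance prior followed intensity (the trend), 47 with all probe sets, 21 with a minimum of 1.5-fold and 33 to 85 with 1 array left out. In shCDK8 cells 47 were called, 100 with the trend, 28 with the compared arrays alone, 30 with all probe sets, 16 with the minimum and 23 to 51 with 1 array left out. Between the lines 2470 were called in starved cells (155 with the minimum, 1468 to 2315 with 1 array left out) and 2624 after serum (176, and 1452 to 2564). The difference of responses gave 0 genes, 7 with the trend and 0 to 1 with 1 array left out. A group left with 1 array was assumed to vary like the others. The difference of responses uses all 4 groups, so no fit of fewer groups was made for it.

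The replicate numbers in the labels are not said to mark shared cultures or days, and deviations of same-numbered arrays correlated at between -0.19 and 0.13 over the 6 pairs of groups. With the replicate number as a block (replicate block), 75 and 41 genes were called after serum in shControl and shCDK8 cells, and no NR4A call changed (adjusted p = 0.0172 for NR4A1 and 0.00693 for NR4A3 between the serum-treated lines).

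Of the 16 alternatives without the minimum change, the SRF call after serum ended in 8 in shCDK8 and 4 in shControl cells, and the RCOR1 call in starved cells ended in 5. Between the serum-treated lines the call on NR1D1 ended in 11, NR2C1 in 9, HDAC5 in 7 and BIRC5 in 2, and that on HDAC9 in 1 of 15. In starved cells the calls on NR1D1 (5), NR2F1 (2) and NR3C1 (2) ended in some, and those on MEF2C, RPS6KA1, RPS6KA2, RPS6KA5, PPARG, THRB and NR5A2 held in all 16 at both times.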
